A study of Mus musculus with 8 samples.

Results

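The unfolded protein response and its endoplasmic reticulum (ER) chaperones were followed through 10 genes taken by name from a table of 55418 gene symbols: the chaperones and folding factors Hspa5, Hsp90b1, Pdia4 and Creld2, the ER stress sensors Ern1, Ern2 and Atf6, and the transcription factors Xbp1, Atf4 and Ddit3. All 10 were found, and all 10 were among the 17522 genes tested. Total RNA came from distal colons of 8 to 10 week old C57BL/6 mice, in 4 groups of 2 libraries. The groups were NAIL-ΔNFκB mice given dextran sulfate sodium (DSS), a chemical that injures the colon lining, untreated NAIL-ΔNFκB mice, wild-type (WT) mice given DSS, and untreated WT mice. DSS was given at 3% for 4 days and was followed by 4 days of normal water. NAIL is a long noncoding RNA, and ΔNFκB is the submitters' name for the mutant allele, whose altered bases the labels do not give. The labels name no cell-specific driver for the allele, and do not say whether a library is 1 mouse or a pool.

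Proteins that enter the ER fold there with the help of chaperones such as BiP, the product of Hspa5. When unfolded protein builds up, the membrane sensors IRE1, PERK and ATF6 start the unfolded protein response: IRE1 splices the Xbp1 message, PERK slows translation and raises Atf4 protein, and ATF6 is cleaved to a transcription factor. The targets include the chaperones themselves, the machinery that degrades misfolded proteins, and, with prolonged stress, Ddit3. In the colon the response is best known from secretory cells, above all goblet cells, which make large amounts of mucin, and from plasma cells. Gene counts measure the amount of each message, and not the splicing of Xbp1, the translation of Atf4 or the cleavage of ATF6.

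Promoter sequence was compared first, because chaperone genes are known for an ER stress response element (ERSE) near their start. The letters searched on both strands were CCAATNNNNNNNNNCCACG for ERSE, ATTGGNCCACG for ERSE-II, TGACGTGG for the unfolded protein response element (UPRE) and TGATGNAAT for the CARE element bound by ATF4. RefSeq promoters of build GRCm38.p6, from 250 bases before to 50 bases after the start, were given for 8 of the 10 genes; Ern2 and Atf6 were not in the table. ERSE was found in the promoters of Hspa5, Hsp90b1 and Creld2, once each in Hspa5 and Creld2 and at 2 places in Hsp90b1. It was found in 39 of 32851 mouse promoters of the same length, which is 0.119%. ERSE-II was in 0.0365%, UPRE in 0.676% and CARE in 0.965% of the same promoters, and none of these was in the window of any of the 8 genes. No motif of the set was found in the windows of Xbp1, Ern1, Atf4, Ddit3 and Pdia4. A match describes letters and not occupancy by a factor.

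The promoters with ERSE are shown 5′ to 3′ on the strand of the gene, with the ERSE match in capitals, to show where it lies. They are Hspa5 at chr2:34771840-34772139 on the plus strand, Hsp90b1 at chr10:86705395-86705694 on the minus strand and Creld2 at chr15:88819396-88819695 on the plus strand.
Hspa5: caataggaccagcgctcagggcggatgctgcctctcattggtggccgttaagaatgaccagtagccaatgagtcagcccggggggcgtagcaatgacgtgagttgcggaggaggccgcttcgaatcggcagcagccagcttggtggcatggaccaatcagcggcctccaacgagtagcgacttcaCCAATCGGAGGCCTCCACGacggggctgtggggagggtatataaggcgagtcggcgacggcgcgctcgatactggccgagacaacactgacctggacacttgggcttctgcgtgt
Hsp90b1: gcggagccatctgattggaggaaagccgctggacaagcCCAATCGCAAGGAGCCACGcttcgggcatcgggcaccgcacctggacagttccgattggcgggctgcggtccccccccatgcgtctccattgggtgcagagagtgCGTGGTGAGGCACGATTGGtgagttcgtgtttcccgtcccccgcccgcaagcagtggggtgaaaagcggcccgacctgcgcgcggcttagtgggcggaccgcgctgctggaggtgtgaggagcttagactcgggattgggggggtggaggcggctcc
Creld2: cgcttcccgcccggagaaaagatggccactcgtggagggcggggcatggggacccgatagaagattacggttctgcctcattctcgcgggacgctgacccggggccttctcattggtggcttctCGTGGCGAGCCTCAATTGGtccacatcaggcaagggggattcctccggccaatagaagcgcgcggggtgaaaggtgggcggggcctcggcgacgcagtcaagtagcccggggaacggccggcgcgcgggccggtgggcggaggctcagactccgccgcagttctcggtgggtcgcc
The first base of the match lay at -65 from the start in Hspa5, at -212 and -107 in Hsp90b1 and at -126 in Creld2. The match at -107 in Hsp90b1 and the match in Creld2 read as ERSE on the other strand.

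Levels are given as CPM, which is counts scaled to a common normalised library size, from libraries of 9229861 to 16935961 counted reads. Y-linked genes summed to at least 218.7 CPM in both untreated ΔNFκB libraries and in untreated WT library 2, and to at most 0.209 CPM in the other 5. All 4 DSS libraries and untreated WT library 1 therefore read as female, so the DSS groups compare females with females, whereas DSS and sex cannot be told apart in the ΔNFκB mice. The share of counts on ribosomal RNA-like genes was between 3.46% and 6.70% after DSS and between 0.686% and 1.83% without it. Gm16685, taken here as the mouse NAIL locus, had 55 and 86 reads in ΔNFκB DSS libraries, 3 and 4 in untreated ΔNFκB libraries, 57 and 126 in WT DSS libraries, and 3 and 20 in untreated WT libraries. Its counts do not check the genotype, because the extent of the change in the allele is not stated. The untreated WT libraries differ in sex and so come from different animals; for the other pairs nothing states it, and p-values measure the spread between these libraries.

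Per kilobase of exon, averaged over the 8 libraries, the order of levels was led by the chaperones. Hsp90b1, the ER form of HSP90, averaged 136.5 CPM per kb (range 85.3 to 202.8) and Hspa5 averaged 134.2 CPM per kb (range 78.1 to 210.6), so these neighbours were not separated by their spread. Pdia4, a disulfide isomerase, averaged 64.3 CPM per kb (range 38.2 to 89.8) and Xbp1 averaged 60.6 CPM per kb (range 45.1 to 78.1), and these too overlapped. Atf4 followed at 37.5, Creld2 at 25.5 and Ern2, which encodes the IRE1β form of gut epithelium, at 21.3 CPM per kb, each overlapping the next in range, and all Ern2 values lay above all Atf6 values. The sensors Atf6 at 11.0, Ern1 at 9.07 and Eif2ak3, the gene of PERK, at 8.82 CPM per kb lay close together, with overlapping ranges. Ddit3, which encodes the stress factor CHOP, was lowest at 3.60 CPM per kb (range 2.38 to 4.80) and rested on 51 to 101 reads a library. ΔNFκB DSS library 2 was the highest of the 8 libraries for 7 of the 10 genes: Hspa5, Hsp90b1, Pdia4, Creld2, Xbp1, Atf4 and Ern1.

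The genes lie on 7 chromosomes in build mm10 (GENCODE vM21 annotation). Hspa5 (ENSMUSG00000026864) is at chr2:34771970-34777547, Hsp90b1 (ENSMUSG00000020048) at chr10:86690209-86705509, Pdia4 (ENSMUSG00000025823) at chr6:47796141-47813430 and Creld2 (ENSMUSG00000023272) at chr15:88819646-88826683. The factors Xbp1 (ENSMUSG00000020484), Atf4 (ENSMUSG00000042406) and Ddit3 (ENSMUSG00000025408) are at chr11:5520659-5525893, chr15:80255184-80257541 and chr10:127290774-127296288. The sensors Ern1 (ENSMUSG00000020715), Ern2 (ENSMUSG00000030866) and Atf6 (ENSMUSG00000026663) are at chr11:106394650-106487852, chr7:122169893-122186207 and chr1:170704674-170867771. Of annotated exon bases, 15.7% of those of Hsp90b1, 10.9% of those of Ddit3 and 0.584% of those of Pdia4 are shared with another annotated gene.

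**Figure D1:**
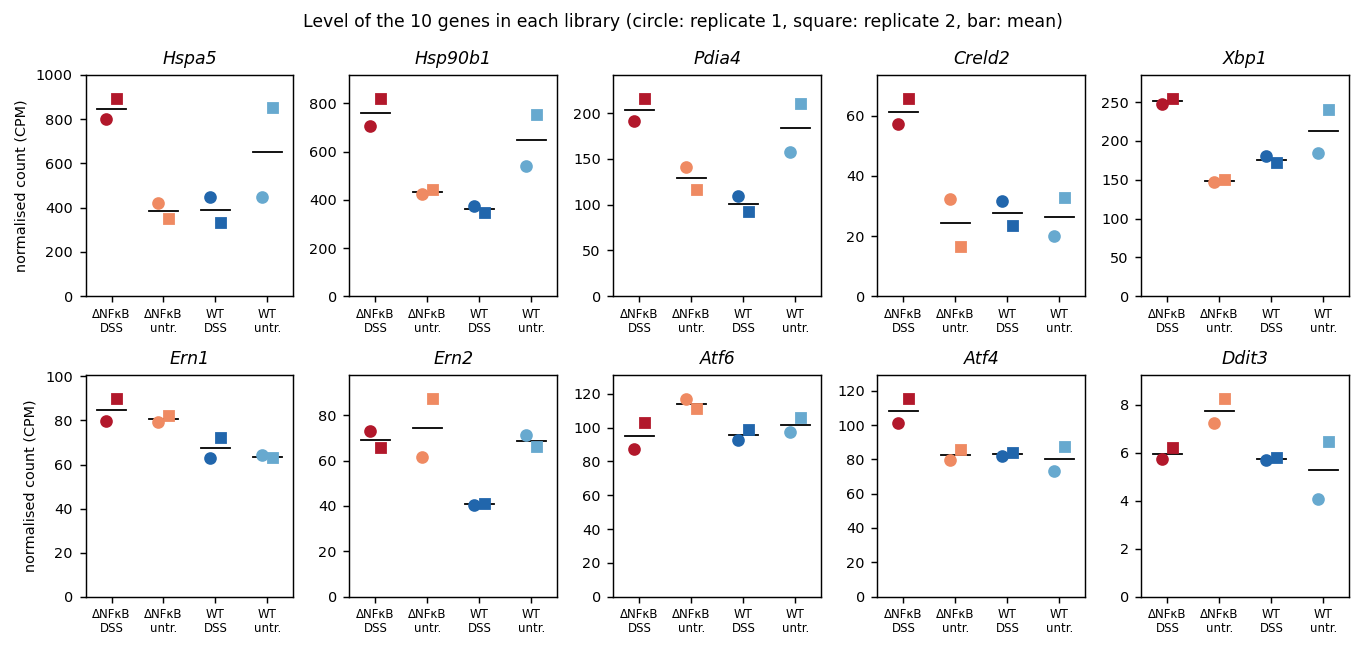
Normalised count (CPM, linear axis from 0) of each of the 10 genes in each of the 8 libraries, grouped by genotype and treatment. Circles are replicate 1, squares are replicate 2 and bars are group means. In the top row both ΔNFκB DSS libraries lie above both untreated ΔNFκB libraries, and untreated WT library 2 is high for Hspa5 at 852.9 CPM.

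The DSS comparison asks how the colon of each genotype responded to the injury. The 4 ER chaperones and folding factors rose with DSS in ΔNFκB mice, by 1.58-fold to 2.52-fold, and 2 of them, Hsp90b1 and Pdia4, fell in WT mice. Hspa5 had 802.0 and 890.6 CPM in ΔNFκB DSS libraries, against 421.7 and 349.1 CPM in untreated ΔNFκB libraries. It had 446.5 and 330.3 CPM in WT DSS libraries, against 446.9 and 852.9 CPM in untreated WT libraries. Both ΔNFκB DSS libraries were above both untreated ΔNFκB libraries, while the WT groups met at about the same value and the untreated WT libraries differed widely from each other. The log2 fold change of Hspa5 with DSS was 1.13 ± 0.29 (SE, adjusted p = 0.0171) in ΔNFκB mice, a 2.20-fold rise, and -0.74 ± 0.29 (adjusted p = 0.0737) in WT mice.

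Hsp90b1, which folds a restricted set of secreted and membrane proteins, had 706.0 and 817.6 CPM in ΔNFκB DSS libraries, against 423.1 and 440.1 CPM in untreated ΔNFκB libraries. It had 376.4 and 343.8 CPM in WT DSS libraries, against 541.5 and 752.9 CPM in untreated WT libraries. No groups overlapped within a genotype, and the direction was up in ΔNFκB and down in WT. The log2 fold change was 0.82 ± 0.17 (adjusted p = 0.00777) in ΔNFκB mice and -0.85 ± 0.17 (adjusted p = 0.00743) in WT mice. The shared exon bases of Hsp90b1 lie in part on the opposite strand, and whether counting used strand is not given in the sources used here.

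Pdia4 had 191.8 and 215.4 CPM in ΔNFκB DSS libraries, against 141.2 and 116.3 CPM in untreated ΔNFκB libraries. It had 110.1 and 91.7 CPM in WT DSS libraries, against 158.2 and 210.2 CPM in untreated WT libraries. As with Hsp90b1, the groups did not overlap within either genotype. Its log2 fold change was 0.66 ± 0.17 (adjusted p = 0.0190) in ΔNFκB mice and -0.87 ± 0.17 (adjusted p = 0.00672) in WT mice.

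Creld2, an ER protein with EGF-like domains that is induced by ER stress, had 57.1 and 65.4 CPM in ΔNFκB DSS libraries, against 32.3 and 16.3 CPM in untreated ΔNFκB libraries. It had 31.6 and 23.4 CPM in WT DSS libraries, against 20.1 and 32.7 CPM in untreated WT libraries. The ΔNFκB groups were apart and the WT groups overlapped. Creld2 rose 2.52-fold in ΔNFκB mice (log2 1.33 ± 0.33, adjusted p = 0.0159), and its log2 fold change in WT mice was 0.06 ± 0.33 (adjusted p = 0.909). The genes with ERSE in the window, Hspa5, Hsp90b1 and Creld2, were all called in ΔNFκB mice, as were Pdia4, Xbp1 and Atf4 of the 5 searched genes with no match.

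Xbp1, the factor whose message IRE1 splices, had 248.1 and 253.7 CPM in ΔNFκB DSS libraries, against 146.6 and 149.4 CPM in untreated ΔNFκB libraries. It had 181.0 and 171.0 CPM in WT DSS libraries, against 185.0 and 240.0 CPM in untreated WT libraries. Within ΔNFκB mice the replicates lay close together and the groups far apart. Its log2 fold change was 0.76 ± 0.14 (adjusted p = 0.00379) in ΔNFκB mice and -0.27 ± 0.13 (adjusted p = 0.146) in WT mice. Xbp1 was the single gene of the 6 called in ΔNFκB mice that stayed past the threshold with each of the 8 libraries left out in turn (highest adjusted p = 0.0264).

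No sensor passed the test with DSS in ΔNFκB mice. Ern1, which encodes IRE1α, had 79.8 and 89.6 CPM in ΔNFκB DSS libraries, against 79.3 and 81.9 CPM in untreated ΔNFκB libraries, and 63.1 and 72.2 CPM in WT DSS libraries, against 64.3 and 62.8 CPM in untreated WT libraries. Its log2 fold change with DSS was 0.07 ± 0.11 (adjusted p = 0.655) in ΔNFκB mice and 0.09 ± 0.11 (adjusted p = 0.552) in WT mice. Ern2 had 72.8 and 65.5 CPM in ΔNFκB DSS libraries, against 61.8 and 87.0 CPM in untreated ΔNFκB libraries, and the groups overlapped. In WT mice it had 40.5 and 40.8 CPM after DSS, against 71.2 and 66.1 CPM untreated, so that the WT DSS libraries were the lowest of the 8. Ern2 fell in WT mice by 0.76 ± 0.16 on the log2 scale (adjusted p = 0.00896), and its log2 fold change was -0.10 ± 0.16 (adjusted p = 0.647) in ΔNFκB mice.

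Atf6, the sensor that is itself the precursor of a transcription factor, had 87.6 and 102.5 CPM in ΔNFκB DSS libraries, against 116.7 and 111.4 CPM in untreated ΔNFκB libraries. It had 92.5 and 98.7 CPM in WT DSS libraries, against 97.4 and 105.6 CPM in untreated WT libraries. Neither DSS effect on Atf6 passed the test, with log2 fold changes of -0.26 ± 0.11 (adjusted p = 0.107) in ΔNFκB mice and -0.09 ± 0.11 (adjusted p = 0.574) in WT mice. Eif2ak3, the sensor of the PERK arm and not one of the 10, had 51.7 and 66.3 CPM in ΔNFκB DSS libraries, against 56.2 and 50.8 CPM in untreated ΔNFκB libraries. It had 49.7 and 52.5 CPM in WT DSS libraries, against 45.0 and 52.9 CPM in untreated WT libraries, and it was not called in ΔNFκB mice (adjusted p = 0.487) or in WT mice (adjusted p = 0.765).

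Downstream of PERK, Atf4 had 101.4 and 114.9 CPM in ΔNFκB DSS libraries, against 79.7 and 85.2 CPM in untreated ΔNFκB libraries. It had 82.2 and 83.9 CPM in WT DSS libraries, against 73.3 and 87.4 CPM in untreated WT libraries. Both ΔNFκB DSS libraries were above the other 6. Atf4 rose in ΔNFκB mice by a log2 fold change of 0.39 ± 0.12 (adjusted p = 0.0360), and its value in WT mice was 0.05 ± 0.12 (adjusted p = 0.784). With DESeq2 the ΔNFκB value was 0.41 and no longer called (adjusted p = 0.0537). Ddit3 had 5.74 and 6.18 CPM in ΔNFκB DSS libraries, against 7.26 and 8.22 CPM in untreated ΔNFκB libraries, and 5.70 and 5.77 CPM in WT DSS libraries, against 4.07 and 6.44 CPM in untreated WT libraries. Its log2 fold change was -0.38 ± 0.25 (adjusted p = 0.280) in ΔNFκB mice and 0.12 ± 0.26 (adjusted p = 0.739) in WT mice, and neither passed the test.

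**Figure D2:**
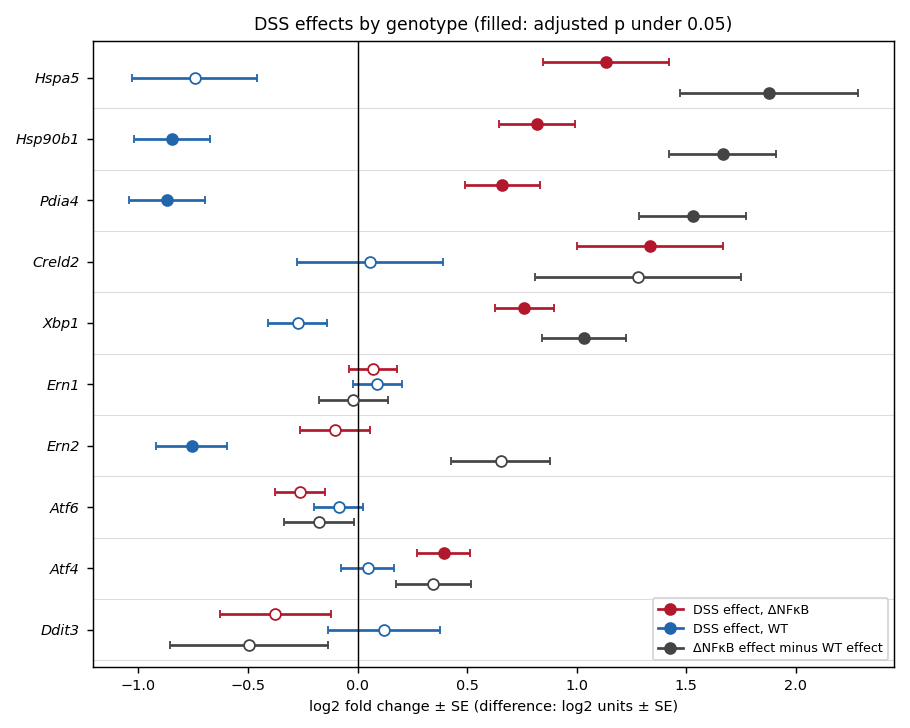
Log2 fold change with DSS in ΔNFκB mice, in WT mice, and the difference between these effects, for each of the 10 genes (points, with SE as bars). Filled points passed an adjusted p under 0.05. Hspa5, Hsp90b1, Pdia4 and Xbp1 lie right of 0 in ΔNFκB mice and left of 0 in WT mice, while Ern1 stays near 0 in both.

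In ΔNFκB mice 6 of the 10 genes rose with DSS and 0 fell: Hspa5, Hsp90b1, Pdia4, Creld2, Xbp1 and Atf4. DSS called 35.4% of all tested genes in these mice, 16.2% higher and 19.2% lower. The median log2 fold change was 0.53 over the 10 genes and -0.04 over all tested genes. The count was 3 without ΔNFκB DSS library 1, 1 without ΔNFκB DSS library 2 and 2 without untreated ΔNFκB library 2. The calls over all genes were 3816 of 18709, 3373 of 18767 and 4632 of 18100 in those fits, against 6199 of 17522 with all libraries. Without ΔNFκB DSS library 2 the log2 fold changes were 1.08 for Hspa5, 0.74 for Hsp90b1 and 1.26 for Creld2. With sex as a term, estimated from the untreated WT pair alone, all 6 stayed called, at larger log2 fold changes such as 2.07 for Hspa5, 1.29 for Hsp90b1 and 2.03 for Creld2. That fit called 3343 of 17522 genes.

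In WT mice 0 of the 10 rose with DSS and 3 fell, namely Hsp90b1, Pdia4 and Ern2. Of all tested genes 36.0% were called, 17.2% higher and 18.8% lower, so 3 of 10 stands near the background. The median log2 fold change was -0.18 over the 10 genes and 0.00 over all. Without WT DSS library 2, 0 of the 10 were called at log2 fold changes of -0.79 for Hsp90b1, -0.75 for Pdia4 and -0.77 for Ern2, in a fit that called 3298 of 18466 genes, against 6315 of 17522 with all libraries. Without untreated WT library 2, which leaves females alone in the WT comparison, the values were -0.17 for Hspa5, -0.56 for Hsp90b1, -0.62 for Pdia4 and -0.78 for Ern2. Hspa5 was called lower by DESeq2 (-0.74, adjusted p = 0.0130) and without the count filter (-0.76, adjusted p = 0.0174). Without untreated WT library 1, Hspa5 fell by 1.11 on the log2 scale.

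The difference between the DSS effects was tested directly, as the effect in ΔNFκB mice minus that in WT mice. It was positive and past the threshold for 4 genes: Hspa5 at 1.88 ± 0.41 (adjusted p = 0.0209), Hsp90b1 at 1.67 ± 0.24 (adjusted p = 0.00809), Pdia4 at 1.53 ± 0.24 (adjusted p = 0.00950) and Xbp1 at 1.03 ± 0.19 (adjusted p = 0.0138), all in log2 units. All of these are ER chaperones or folding factors apart from Xbp1, a transcription factor. The edgeR test was missed by Creld2 at 1.28 ± 0.47 (adjusted p = 0.0926), Ern2 at 0.65 ± 0.23 (adjusted p = 0.0804) and Atf4 at 0.35 ± 0.17 (adjusted p = 0.186). The Creld2 difference was called by DESeq2 (adjusted p = 0.0250), with the sex term (adjusted p = 0.0455) and without the count filter (adjusted p = 0.0172), and that of Ern2 without the filter (adjusted p = 0.0492). Ddit3 had -0.49 (adjusted p = 0.356), Atf6 -0.18 (adjusted p = 0.462) and Ern1 -0.02 (adjusted p = 0.943).

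The background of this test was 17.7% of all genes, 8.63% with a positive and 9.07% with a negative difference, against 4 positive and 0 negative among the 10. The median difference was 0.84 over the 10 genes and -0.05 over all tested genes. Hsp90b1 and Pdia4 stayed past the threshold with each library left out (highest adjusted p = 0.0447 for Hsp90b1 and 0.0496 for Pdia4), and Hspa5 and Xbp1 did not. Without ΔNFκB DSS library 2, 2 of the 10 were called in a fit that called 489 of 18767 genes, against 3102 of 17522 with all libraries, and the differences were 1.8 for Hspa5 and 1.02 for Xbp1. Without WT DSS library 2, 2 of the 10 and 792 of 18466 genes were called, with 1.69 for Hspa5 and 1.0 for Xbp1.

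**Figure D3:**
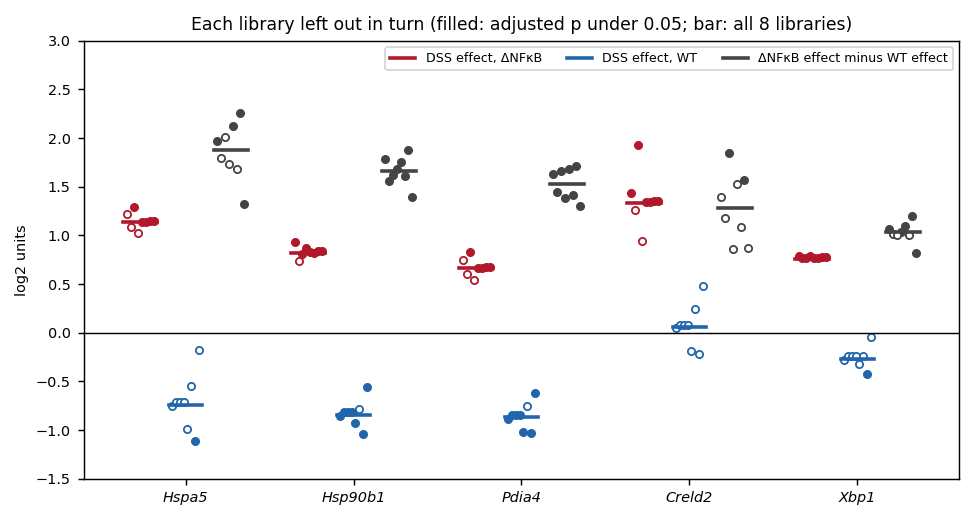
DSS effects in each genotype and their difference, in log2 units, for Hspa5, Hsp90b1, Pdia4, Creld2 and Xbp1 with each library left out in turn (points; filled where adjusted p was under 0.05) and with all 8 libraries (bars). The ΔNFκB effect and the difference stay above 0 for all 5 genes, while the WT effect of Creld2 lies on both sides of 0.

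Among the DSS groups the genotypes were compared directly, within females. Of the 10 genes 6 were higher in ΔNFκB DSS than in WT DSS libraries and 0 were lower, against 20.0% of all tested genes, 8.32% higher and 11.7% lower. The 6 were Hspa5 at a log2 fold change of 1.12 ± 0.29 (adjusted p = 0.0298), Hsp90b1 at 1.08 ± 0.17 (adjusted p = 0.00620), Pdia4 at 1.01 ± 0.17 (adjusted p = 0.00777), Creld2 at 1.16 ± 0.33 (adjusted p = 0.0431), Ern2 at 0.77 ± 0.16 (adjusted p = 0.0163) and Xbp1 at 0.51 ± 0.14 (adjusted p = 0.0329). The IRE1β gene thus joined the chaperones and Xbp1 in this comparison. Atf4 at 0.38 (adjusted p = 0.0590) and Ern1 at 0.32 (adjusted p = 0.0755) missed the threshold, and Atf6 at -0.01 (adjusted p = 0.966) and Ddit3 at 0.06 (adjusted p = 0.898) were near 0. The median was 0.64 over the 10 genes and 0.03 over all tested genes. None of the 6 calls held in every fit with a library left out. Without ΔNFκB DSS library 1 the log2 fold changes were 1.21 for Hspa5, 1.20 for Hsp90b1 and 1.11 for Pdia4. Calls over all genes fell as well, to 484 of 18767 without ΔNFκB DSS library 2 and 890 of 18466 without WT DSS library 2, against 3499 of 17522 with all libraries. Without ΔNFκB DSS library 2 the log2 fold changes were 1.02 for Hspa5, 0.94 for Hsp90b1 and 0.90 for Pdia4, and without WT DSS library 2 they were 0.93, 1.02 and 0.89 for the same genes.

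Between untreated groups, ΔNFκB against WT, edgeR called 0 of the 10 genes, with 5 at an unadjusted p under 0.05. That level was common among all genes: the 5 ranked from 469 (Xbp1) to 1930 (Hspa5) of 17522 tested genes. Ddit3, which missed that level, ranked 3096. The 5 alone therefore do not show an effect of genotype on these genes. Of all tested genes edgeR called 0.388%, 0.0399% higher and 0.348% lower. DESeq2 called 2 of the 10, Hsp90b1 and Xbp1, both lower in ΔNFκB, beside 264 of 17522 tested genes. With edgeR the log2 fold changes were -0.75 for Hspa5 (adjusted p = 0.262), -0.58 for Hsp90b1 (adjusted p = 0.186), -0.52 for Pdia4 (adjusted p = 0.222) and -0.52 for Xbp1 (adjusted p = 0.166). Ern1, the other of the 5, was higher in ΔNFκB at 0.34 (adjusted p = 0.215). Of the rest, Ddit3 at 0.55, Atf6 at 0.17, Ern2 at 0.11 and Atf4 at 0.04 were positive, and Creld2 at -0.12 was negative. Untreated WT library 2, the male of that group, lay above library 1 for Hspa5, Hsp90b1, Pdia4 and Xbp1. Without library 1, which leaves males against a male, the values were -1.17 for Hspa5, -0.83 for Hsp90b1 and -0.72 for Xbp1. Without library 2, which leaves males against a female, they were -0.24 for Hspa5, -0.35 for Hsp90b1 and -0.35 for Xbp1. The comparisons above share groups, so they are not independent of each other: a high untreated WT library enters the untreated comparison, the WT DSS effect and the difference.

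Among other genes of ER folding, more were called higher than lower with DSS in ΔNFκB mice, and more lower than higher in WT mice. Of 30 other ER chaperones, co-chaperones and disulfide enzymes 29 were tested, and Agr3 was below the count filter. In ΔNFκB mice 19 rose with DSS and 1 fell (median log2 fold change 0.68, against -0.04 for all tested genes). In WT mice 3 rose, 11 fell and 15 were not called (median -0.24, against 0.00). Over all tested genes 16.2% rose and 19.2% fell in ΔNFκB mice, and 17.2% rose and 18.8% fell in WT mice. The effect in ΔNFκB minus that in WT was called positive for 16 and negative for 0 (median 0.73, against -0.05). Over all tested genes 8.63% were positive and 9.07% negative.

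Hyou1, a nucleotide exchange factor for BiP, averaged 329.6 ± 8.86 CPM in ΔNFκB DSS and 111.5 ± 3.62 CPM in untreated ΔNFκB libraries (SD, n = 2 each), a log2 fold change of 1.56 ± 0.19 (SE). Manf, a secreted ER stress protein, and Sdf2l1, a BiP cofactor, followed at 1.45 and 1.44, and Cnpy2 fell by 0.55. In WT mice Agr2, the disulfide isomerase needed for mucin folding in goblet cells, averaged 242.6 ± 23.3 CPM after DSS and 654.9 ± 124 CPM untreated (SD, n = 2 each). It fell there by 1.43 on the log2 scale, next to Cnpy2 at -0.87 and the isomerase Pdia6 at -0.80. In the same WT comparison the oxidase gene Ero1l rose by 1.02, Txndc11 by 0.60 and the isomerase P4hb by 0.38. The largest positive differences were 2.17 ± 0.22 for Agr2 (adjusted p = 0.00421), 1.81 for Manf and 1.48 for Pdia6. Between the DSS groups 16 of the 29 were higher in ΔNFκB and 0 lower, led by Agr2 at 1.37, Manf at 1.16 and Hyou1 at 0.99. The shares over all tested genes were 8.32% higher and 11.7% lower.

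The 20 genes of the translocon, which threads new proteins into the ER, gave 14 higher and 1 lower with DSS in ΔNFκB mice (median 0.58). In WT mice 0 rose and 5 fell (median -0.15), and 12 differences were called positive and 0 negative (median 0.70). Over all tested genes 16.2% rose and 19.2% fell in ΔNFκB mice, and 17.2% rose and 18.8% fell in WT mice. The 5 of 20 that fell in WT mice thus lie near the share. Of all differences 8.63% were called positive and 9.07% negative. Sec61a1, the channel itself, rose by 0.93 in ΔNFκB mice, as did the signal peptidase subunit Spcs2 by 0.91 and the translocon-associated Ssr2 by 0.90, and Sec62 fell by 0.45. In WT mice Sec62 at -0.73, Ssr4 at -0.70 and Sec11a at -0.41 had the largest called falls. Ssr2 at 1.27, Spcs2 at 1.24 and Ssr3 at 1.03 had the largest differences. Between the DSS groups 10 were higher in ΔNFκB and 0 lower, with Spcs2 at 0.83, Ssr2 at 0.80 and Ssr3 at 0.59. The shares over all tested genes were 8.32% higher and 11.7% lower there.

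ER-associated degradation returns misfolded proteins to the cytosol for destruction. Of 20 such genes 5 rose and 0 fell with DSS in ΔNFκB mice (median 0.15), beside 16.2% higher and 19.2% lower over all tested genes. Vcp, the ATPase that pulls proteins out of the ER, rose by 0.88, Edem2 by 0.72 and Nploc4, a cofactor of Vcp, by 0.69. In WT mice Nploc4 rose by 0.45, and Derl1 at -0.45 and Ube2j1 at -0.43 fell (1 higher, 2 lower, median -0.09). Over all tested genes 17.2% were higher and 18.8% lower in WT mice. The difference was called for 2 genes, Selenos at 0.83 and Vcp at 0.78 (median 0.25 over the 20), beside 8.63% positive over all tested genes. Between the DSS groups 2 were higher in ΔNFκB and 0 lower, Vcp at 0.51 and Derl2 at 0.49, beside 8.32% higher. In both comparisons 2 of 20 lies near the share over all tested genes.

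Targets of ATF4 and CHOP were called higher more often than lower in each genotype. Of 24 such genes, in ΔNFκB mice 14 were higher and 3 lower with DSS (median 1.05). In WT mice 11 were higher and 3 lower (median 0.62). Over all tested genes 16.2% were higher and 19.2% lower in ΔNFκB mice, and 17.2% higher and 18.8% lower in WT mice. The genes with the largest rises in each were Chac1, a glutathione-degrading enzyme, at 3.37 in ΔNFκB and 3.00 in WT, the amino acid transporter Slc7a5 at 2.45 and 2.31, and the cystine transporter Slc7a11 at 2.25 and 3.16. Vldlr at -1.46 in ΔNFκB and -1.95 in WT, Bbc3 at -1.40 and -1.02, and Cth at -1.25 and -2.28 were the genes that fell. Chac1 rested on low counts, with a mean of 3.81 CPM in ΔNFκB DSS and 0.356 CPM in untreated ΔNFκB libraries, so the size of its fold is loosely set.

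For these targets the genotypes differed at some genes. The difference was called positive for 7 and negative for 1 of the 24 (median 0.36), beside 8.63% and 9.07% over all tested genes. It was 1.58 for Phgdh and 1.14 for Psat1, both of serine synthesis, 1.50 for the tryptophanyl-tRNA synthetase gene Wars, and -1.02 for Ddit4. Between the DSS groups 5 were higher and 2 lower in ΔNFκB, beside 8.32% and 11.7% over all tested genes. Wars at 1.31, Phgdh at 0.98 and Aldh18a1 at 0.64 were higher, and Slc7a11 at -1.20 and Ddit4 at -1.13 were lower. In both comparisons the negative or lower count was no more than the share over all tested genes.

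Among 15 other sensors, proteases and factors 3 rose and 1 fell with DSS in ΔNFκB mice (median 0.14), and 1 rose and 3 fell in WT mice (median -0.03). The 3 of 15 higher in ΔNFκB mice and the 3 of 15 lower in WT mice lie near the 16.2% and 18.8% over all tested genes. Cebpb, a factor of inflammation and of the stress response, averaged 20.5 ± 1.88 CPM in ΔNFκB DSS and 11.3 ± 1.23 CPM in untreated ΔNFκB libraries, and 57.0 ± 15.0 CPM in WT DSS and 10.4 ± 1.10 CPM in untreated WT libraries (SD, n = 2 each). It rose by 0.86 in ΔNFκB and by 2.46 in WT mice, and the difference of -1.59 ± 0.29 (adjusted p = 0.0133) was of the opposite sign to that of the chaperones. Eif2s1, the translation factor subunit that PERK phosphorylates, rose by 0.37 in ΔNFκB and fell by 0.47 in WT mice, with a difference of 0.84 (adjusted p = 0.0170). The difference was thus called for 1 gene upward and 1 downward (median 0.15), beside 8.63% and 9.07% over all tested genes. Atf6b rose by 0.53 in ΔNFκB mice, Nfe2l2 fell by 0.45 in ΔNFκB and by 0.81 in WT mice, and Cebpg fell by 0.50 in WT mice. Between the DSS groups Cebpg at 0.47 and Eif2s1 at 0.42 were higher in ΔNFκB and Cebpb at -1.47 was lower. So 2 were higher and 1 lower (median 0.21), beside 8.32% and 11.7% over all tested genes. Between the untreated groups edgeR called no gene of these lists, and the lists were not tested with DESeq2.

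**Figure D4:**
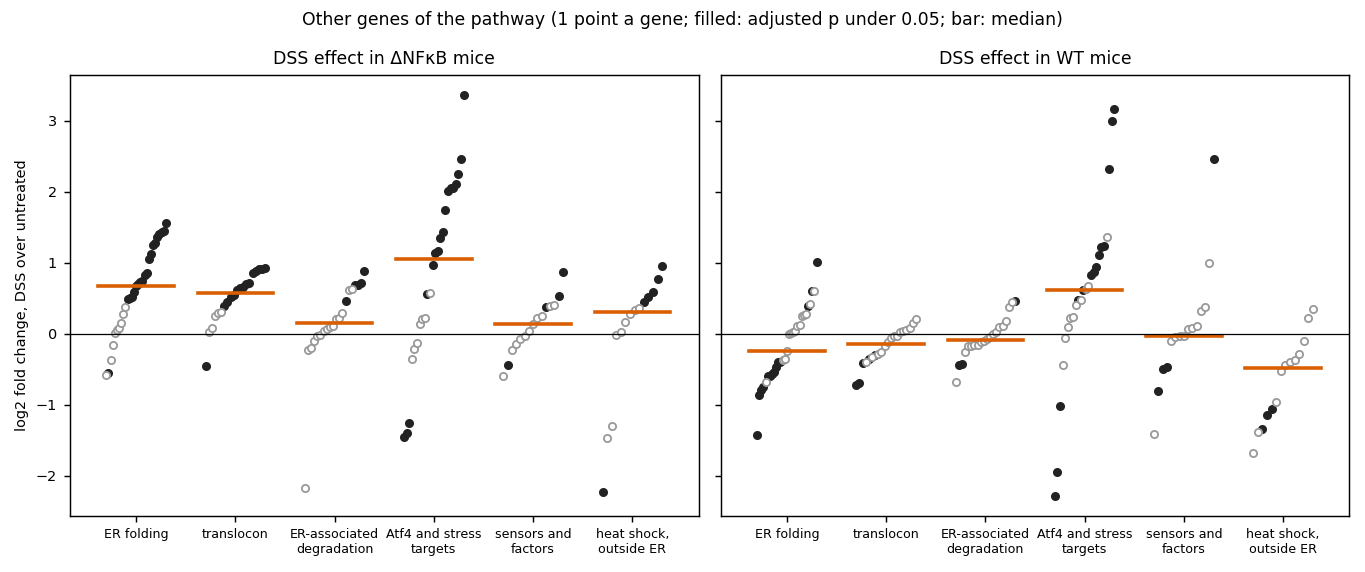
Log2 fold change with DSS for the other genes of the pathway, 1 point a gene, in ΔNFκB mice (left) and WT mice (right); filled points had an adjusted p under 0.05 and orange bars are list medians. The ER folding and translocon medians are 0.68 and 0.58 in ΔNFκB mice and -0.24 and -0.15 in WT mice, whereas the targets of ATF4 and CHOP have positive medians in both.

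These are bulk tissue libraries, in which fewer cells of a type and less RNA per cell cannot be told apart, and markers of secretory and other cells moved beside the chaperones. The 10 goblet cell markers summed to 10653 and 8717 CPM in ΔNFκB DSS libraries, against 16280 and 17873 CPM in untreated ΔNFκB libraries. They summed to 3043 and 3847 CPM in WT DSS libraries, against 19250 and 26987 CPM in untreated WT libraries. The goblet sums were thus lower after DSS in both genotypes and lowest in WT DSS. All 10 were called higher in ΔNFκB DSS than in WT DSS libraries, beside 8.32% of all tested genes. In ΔNFκB mice 3 rose and 5 fell with DSS, beside 16.2% and 19.2% over all tested genes. In WT mice 1 rose and 8 fell, beside 17.2% and 18.8%. Hsp90b1 and Pdia4 therefore moved against the goblet sum with DSS in ΔNFκB mice and with it in WT mice. For the difference between the DSS effects, ΔNFκB minus WT, 9 of the 10 goblet markers were called positive and 0 negative (median 2.04). This is the same direction as the differences of Hsp90b1 and Pdia4. Over all tested genes 8.63% were positive and 9.07% negative.

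The 8 epithelial markers summed to 8510 to 8991 CPM in ΔNFκB DSS libraries, 7840 to 8876 CPM in untreated ΔNFκB libraries, 5880 to 6587 CPM in WT DSS libraries and 8731 to 10642 CPM in untreated WT libraries. The 8 plasma and B cell markers summed to 5.26 to 97.3 CPM in ΔNFκB DSS libraries, against 107.1 to 249.1 CPM in untreated ΔNFκB libraries, and to 123.6 to 180.8 CPM in WT DSS libraries, against 196.5 to 272.6 CPM in untreated WT libraries. Of these 8 plasma and B cell markers 6 were tested. With DSS 0 rose and 1 fell in ΔNFκB mice (median log2 fold change -0.48). In WT mice 0 rose and 1 fell as well (median 1.40), so the median there went against the sum. The shares lower over all tested genes were 19.2% in ΔNFκB and 18.8% in WT mice. Tnfrsf17, which marks plasma cells, had no counts in either DSS group, and ΔNFκB DSS library 2 had the lowest plasma and B cell sum. The part of goblet, epithelial, plasma and B cells in the results was not tested.

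Marker sums of other cell types also differed between the groups. Absorptive colonocyte markers, 10 in all, summed to 3144 to 3185 CPM in ΔNFκB DSS libraries, against 4751 to 6138 CPM in untreated ΔNFκB libraries, and to 2106 to 2145 CPM in WT DSS libraries, against 5413 to 8353 CPM in untreated WT libraries. Smooth muscle markers summed to 942 to 963 CPM in ΔNFκB DSS libraries, against 5837 to 6011 CPM in untreated ΔNFκB libraries, and to 1093 to 1365 CPM in WT DSS libraries, against 3733 to 7334 CPM in untreated WT libraries. All 8 were called lower with DSS in each genotype, beside 19.2% in ΔNFκB and 18.8% in WT mice over all tested genes. Neutrophil markers summed to 148.0 to 198.3 CPM in ΔNFκB DSS and 500.7 to 634.5 CPM in WT DSS libraries, and fibroblast markers to 592 to 739 CPM in ΔNFκB DSS and 1957 to 2979 CPM in WT DSS libraries. Between these groups 7 of 8 neutrophil and 8 of 8 fibroblast markers were called lower in ΔNFκB, beside 11.7% of all tested genes. Their part in the results was not tested.

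**Figure D5:**
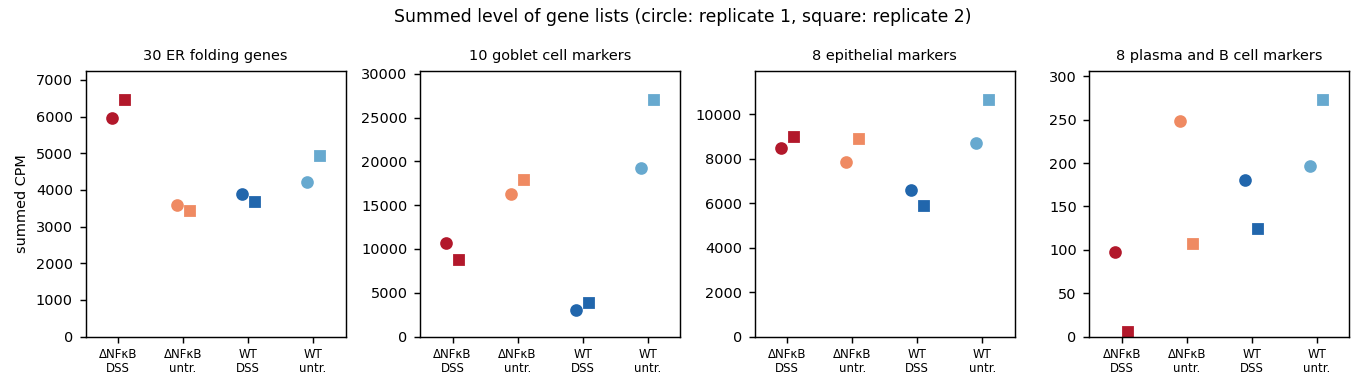
Summed CPM of 30 ER folding genes and of goblet, epithelial and plasma or B cell markers in each library (linear axes from 0; circles replicate 1, squares replicate 2). ER folding genes sum highest in the ΔNFκB DSS libraries, at 5953 and 6447 CPM, while goblet markers are lowest in WT DSS and plasma and B cell markers lowest in ΔNFκB DSS library 2.

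As a description over the 8 libraries, the genes with the pattern most like that of Hspa5 among 10133 searched were Stx7 (Pearson r of log2 CPM 0.985), Mycbp (0.985), Ndufaf4 (0.982), Serinc2 (0.973) and Gm6430 (0.971). For Ern2 they were Ascc2 (0.979), Sh3d19 (0.974), Ppip5k1 (0.959), Twnk (0.958) and Syt7 (0.958). The libraries share groups, depth and sex, and high values are common when many genes are searched over 8 points.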

How the data were processed

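Total RNA from mouse distal colon was sequenced as pairs of 150-base reads after TruSeq Total RNA preparation, per the labels' protocols. Per the submitters' processing notes the tools were HISAT2 2.1, SAMtools 1.8 and featureCounts of Subread 1.6.2, with build mm10. The authors deposited expected counts (estimated counts per gene, not scaled to depth) in 2 tables with the same values, of which 18.8% of the nonzero ones are not whole. Symbols on several lines were summed, which left 55418, and counts were rounded to whole numbers, where raw whole counts had been assumed.

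edgeR 4.0.16 (R 4.3.3) was run as a quasi-likelihood test on 17522 genes that passed filterByExpr, with TMM factors, 4 group means and 4 residual degrees of freedom. All 8 libraries entered the fit, so groups of 2 libraries share 1 spread. SE is the log2 fold change over the root of F, and p-values were adjusted by Benjamini-Hochberg over all genes, with a threshold of 0.05. For 2 libraries against 2 an exact permutation test of a single value cannot go below p = 0.333. CPM used TMM library sizes, and CPM per kb used exon lengths of GENCODE vM21.

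Alternatives were DESeq2 1.42.0, limma-voom (limma 3.58.1), RLE factors, other filters, a replicate block, a sex term, dropped gene classes, the compared groups alone, and each library left out. On simulated data the test recovered 55.0% of 2-fold and 88.0% of 4-fold changes for DSS in ΔNFκB mice. For the difference it recovered 8.0% of 2-fold and 68.5% of 4-fold changes, so a missed call there says little. Few genes were changed in the simulated data, unlike in these data. The genes and lists were chosen with earlier results of these data known. All 10 genes are named; of each other list the up to 3 largest called changes in each direction are named for each comparison, and the 5 genes most correlated with Hspa5 and with Ern2. Promoter sequences are from RefSeq. Ddit3 had the lowest depth of the 10.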

Additional observations from a re-analysis of the deposited data

Results flagged for a closer look

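The DSS effect differed between genotypes for 4 of the 10 genes by the direct test of the difference. The effect in ΔNFκB mice minus the effect in WT mice was 1.88 log2 units for Hspa5, 1.67 for Hsp90b1, 1.53 for Pdia4 and 1.03 for Xbp1. For Hsp90b1 and Pdia4 the effect was called in both genotypes, upward in ΔNFκB and downward in WT, and the difference held with each library left out. For Hspa5 and Xbp1 it was called upward in ΔNFκB mice and missed the threshold in WT mice with edgeR; DESeq2 called Hspa5 lower there (-0.74, adjusted p = 0.0130). Goblet marker sums also differed between the groups, and their part was not tested. With a sex term the differences were 2.27 for Hspa5, 1.88 for Hsp90b1, 1.72 for Pdia4 and 1.21 for Xbp1. That term was estimated from the untreated WT pair alone, and DSS and sex cannot be told apart in the ΔNFκB mice.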

How the results depend on the processing

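No called value among the 10 genes changed sign under any alternative run. Away from left-out libraries, 165 such values stayed called and 2 did not: Atf4 with DSS in ΔNFκB mice was lost with DESeq2 (0.41, adjusted p = 0.0537) and Creld2 between the DSS groups was lost under the replicate block (1.17, adjusted p = 0.0526). Calls were gained for Hspa5 with DSS in WT mice (DESeq2 -0.74, no filter -0.76), for the differences of Creld2 (DESeq2 1.30, no filter 1.31, sex term 1.58) and Ern2 (no filter 0.68), and for Atf4 between DSS groups with the sex term (0.38). Between the untreated groups the count of called genes was 0 in the edgeR fit, 2 with DESeq2 and 1 with the sex term. Over all 17522 tested genes 68, 264 and 176 were called in those fits. With single libraries left out, the counts ranged from 1 to 6 for DSS in ΔNFκB mice, 0 to 5 for DSS in WT mice, 0 to 3 between untreated groups, 0 to 6 between DSS groups and 2 to 5 for the difference, and of the called values 104 kept and 48 lost their call; a group left with 1 library is assumed to vary like the others. Values not called that changed sign were Ern1 in the difference without the count filter (0.0078), Atf4 between untreated groups without the filter (-0.015) and with the sex term (-0.085), and Ddit3 with DSS in ΔNFκB mice with the sex term (0.284). With single libraries left out, values not called ranged on both sides of 0 for DSS in ΔNFκB mice at Ern2 (-0.31 to 0.18), for DSS in WT mice at Creld2 (-0.22 to 0.48), Ddit3 (-0.14 to 0.52), Atf4 (-0.045 to 0.21), Ern1 (-0.017 to 0.17) and Atf6 (-0.14 to 0.0044), between untreated groups at Creld2 (-0.73 to 0.26), Ern2 (-0.18 to 0.32) and Atf4 (-0.11 to 0.14), between DSS groups at Atf6 (-0.16 to 0.12) and Ddit3 (-0.028 to 0.13), and in the difference at Ern1 (-0.11 to 0.092). The labels do not say whether the replicate numbers pair the mice. Deviations from group means correlated at -0.126 to 0.244 between same-numbered libraries, which cannot decide it with 2 libraries a group. With the replicate as a block the counts of called genes were 6 for DSS in ΔNFκB mice, 3 in WT mice, 0 between untreated groups, 6 between DSS groups, where Atf4 was gained (0.38, adjusted p = 0.0401), and 4 for the difference. Ddit3 had the fewest reads of the 10, at 51 to 101 a library.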

Other observations

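Heat shock proteins outside the ER were not uniform. Of 14 such genes 5 rose and 1 fell with DSS in ΔNFκB mice (median log2 fold change 0.31), and 0 rose and 3 fell in WT mice (median -0.49), beside 16.2% rising and 19.2% falling in ΔNFκB mice and 17.2% and 18.8% in WT mice over all tested genes. The genes of the mitochondrial chaperonin, Hspd1 and Hspe1, rose by 0.95 and 0.77 in ΔNFκB mice, and mitochondrial Hspa9 by 0.59. Hspb1, a small heat shock protein, averaged 5.39 ± 0.49 CPM in ΔNFκB DSS and 25.4 ± 4.63 CPM in untreated ΔNFκB libraries, and 29.4 ± 12.7 CPM in WT DSS and 25.4 ± 11.4 CPM in untreated WT libraries (SD, n = 2 each). Its DSS effect was -2.23 in ΔNFκB mice (adjusted p = 0.00402), and the difference from WT was -2.44 ± 0.54 (adjusted p = 0.0222). In WT mice the cytosolic genes Hsp90aa1 at -1.34, Hspa8 at -1.14 and Hsph1 at -1.05 fell. For the difference 5 were positive and 1 negative (median 0.77), with Hsp90aa1 at 1.51, Hspd1 at 1.36 and Hspe1 at 1.30. Between the DSS groups 5 were higher and 1 lower in ΔNFκB (median 0.64), with Hspd1 at 0.73, Hspe1 at 0.67, Hsp90ab1 at 0.55 and Hspb1 at -2.44. Over all tested genes 8.63% of differences were positive and 9.07% negative. The shares between the DSS groups were 8.32% higher and 11.7% lower.

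The inducible pair Hspa1a and Hspa1b, which share nearly all their sequence and were looked at after their values were seen, summed to 23.4 and 42.5 CPM in ΔNFκB DSS libraries, against 104.9 and 63.3 CPM in untreated ΔNFκB libraries. They summed to 28.5 and 16.5 CPM in WT DSS libraries, against 30.7 and 104.2 CPM in untreated WT libraries.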
